A study of Mus musculus with 8 samples.

Results

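The 10 genes described here encode myosin heavy chains, and the working name given to them was the myosin heavy chains of extraocular muscle. They were chosen by symbol as Myh1, Myh2, Myh3, Myh4, Myh6, Myh7, Myh8, Myh13, Myh7b and Myh14, which are 10 of 31053 genes counted in each library. All 10 were present in the count files. Of these, 7 passed the filter of 1 CPM (counts scaled to a common library total) or more in 4 or more libraries, and Myh6, Myh13 and Myh7b did not. The choice by symbol used no measured value.

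The libraries were made from eyecups of C57/Bl6 mice at postnatal day 11 (P11), 4 from Bbs8+/+ mice that were wild type littermates and 4 from Bbs8-/- mice, and no animal was treated. Bbs8, whose mouse gene symbol is Ttc8, is a subunit of the BBSome, a complex that carries membrane proteins to and from the primary cilium. The Bbs8-/- mice carried a constitutive knockout, which is not limited to one cell type. An eyecup is the back of the eye with the retinal pigment epithelium (RPE), choroid and sclera. Muscle, fat, cornea, lens, retina and optic nerve were dissected away, so that muscle transcripts in these libraries came from what the dissection left behind. The 3′ end of polyadenylated RNA was sequenced, which gives about one fragment per transcript whatever its length. The longest annotated transcripts of the 10 genes measured between 6016 and 6499 bases, so that levels can also be compared between these genes per length.

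Myosin II is the motor of muscle, a dimer of heavy chains with bound light chains that pulls on actin filaments. Muscle fibres pass through heavy chains in a sequence during development, from the embryonic chain (Myh3) and the perinatal chain (Myh8) to the adult fast chains IIa (Myh2), IIx (Myh1) and IIb (Myh4) or the slow chain (Myh7). The extraocular muscles, which move the eye and attach to the sclera, are known to keep developmental chains in the adult and to use the superfast chain Myh13 and the slow-tonic chain Myh7b. Myh6 is the alpha chain of the heart. Myh14 is a non-muscle myosin heavy chain, so that sums and shares are also given without it. The older protein name MYH14 has been used for Myh7b as well, and the Myh14 row here is the non-muscle gene.

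In the mm10 genome 6 of the genes form one cluster on the + strand of chromosome 11. The order is Myh3 (67078300 to 67102291), Myh2 (67171027 to 67197517), Myh1 (67200052 to 67224575), Myh4 (67238029 to 67260446), Myh8 (67277124 to 67308634) and Myh13 (67321658 to 67371586). Myh6 (54941921 to 54966927) and Myh7 (54970684 to 54994626) lie side by side on the - strand of chromosome 14. Myh7b is on chromosome 2 (155611212 to 155634307) and Myh14 on chromosome 7 (44605803 to 44670843). The neighbouring genes are similar in sequence, and the files hold uniquely aligned reads, so reads shared by several chains are not in these counts.

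The 150 bases before the RefSeq start site are printed for 3 genes of the chromosome 11 cluster, because the main difference lay in Myh8, and the other developmental chain (Myh3) and the adult fast chain next to Myh8 in the cluster (Myh4) had other patterns. The sequences are from RefSeq on GRCm38.p6, + strand, 5′ to 3′, at chr11:67276974-67277123 for Myh8, chr11:67078150-67078299 for Myh3 and chr11:67237662-67237811 for Myh4. Capitals mark matches on either strand to the TATA element (spelled TATAAA), the MCAT element (spelled CATTCC), the muscle E-box (spelled CAGCTG), the MEF2 motif or the CArG box.
Myh8: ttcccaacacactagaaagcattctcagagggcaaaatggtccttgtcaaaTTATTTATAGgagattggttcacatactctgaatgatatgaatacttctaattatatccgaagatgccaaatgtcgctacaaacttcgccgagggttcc
Myh3: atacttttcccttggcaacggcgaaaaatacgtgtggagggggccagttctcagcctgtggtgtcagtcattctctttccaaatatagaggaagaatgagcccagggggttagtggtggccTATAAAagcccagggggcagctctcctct
Myh4: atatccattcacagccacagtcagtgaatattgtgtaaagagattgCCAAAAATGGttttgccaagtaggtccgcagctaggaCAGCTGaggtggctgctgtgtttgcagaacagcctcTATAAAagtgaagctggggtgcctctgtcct
A TATA element on the gene's own strand stood at -29 to -24 in Myh3 and at -31 to -26 in Myh4, counted from the start site. In Myh8 the TATA element was found on the opposite strand only, at -96 to -91, inside a MEF2 match at -99 to -90. Myh4 also held the E-box at -67 to -62 and a CArG box at -104 to -95. Among 27025 mouse promoters with 150 bases before the start, 8.08% held the TATA element, 7.64% the MCAT element, 8.21% the E-box, 1.71% the MEF2 motif and 0.884% a CArG box. The MEF2 consensus was searched with either pyrimidine first and either purine last, a spelling chosen after the Myh8 window had been read. With C first and G last only, 0.34% of promoters held it and the Myh8 window did not. A MEF2 match can contain a TATA element, as in Myh8, and no other matches overlapped in the sequences printed. The same search found the TATA element at -32 to -27 and the MCAT element at -16 to -11 in Myh1, and none of these letters in the windows of Myh2, Myh6, Myh7, Myh13, Myh7b and Myh14. These are matches of letters and not measured binding sites.

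Gene counts per library summed to between 1636725 and 2884983, so that 3 counts, the limit that a count of 0 allows, corresponded to 1.04 to 1.83 CPM. Ttc8 transcript remained in each Bbs8-/- library, with 16, 7, 5 and 9 counts against 34, 50, 39 and 62 in Bbs8+/+. It averaged 18.6 ± 2.96 CPM over the Bbs8+/+ libraries against 4.97 ± 3.27 CPM over the Bbs8-/- libraries (SD, n = 4 each). Its log2 fold change was -1.95 (edgeR quasi-likelihood FDR 2.75e-06), and -2.44 without Bbs8-/- 1, whose 9.72 CPM was the highest of that genotype. Xist, which female cells express, and transcripts of the Y chromosome were found together in all 8 libraries, while the study's methods treat every mouse as a replicate of its own. The 4 Y-linked genes summed to between 59.1 and 65.0 CPM in Bbs8+/+ libraries and between 108 and 120 CPM in Bbs8-/- libraries, without overlap. For 7 lens genes the sums were 40.6 to 53.9 CPM (Bbs8+/+) and 151 to 182 CPM (Bbs8-/-), with 2 of the 7 genes called, the crystallins Cryaa (8.44 and 67.7 CPM) and Cryba1 (8.43 and 56.9 CPM). For 6 fibroblast genes they were 20090 to 20330 CPM and 16860 to 17520 CPM. The lower fibroblast sum came mostly from Col1a1 (11720 and 8752 CPM), since 2 of the 6 genes were called, Col1a1 and Col3a1, and Dcn stood higher in Bbs8-/- without overlap (5894 and 6261 CPM, edgeR FDR 0.174). Over all genes tested, 1.10% were called higher and 1.14% lower. Transcripts linked to sex and to other tissues of the eye therefore moved with genotype, and their part in the results below was not tested. Whether each library held RNA of a single mouse is not known. The p-values measure the spread between these libraries, which may be less than the spread between mice.

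Of the 7 heavy chains tested, 1 was up-regulated in Bbs8-/-, the perinatal chain Myh8, and none was down-regulated at FDR 0.05. Across all 13813 genes tested, 1.10% were called higher and 1.14% lower in the same fit. Myh8 was also the only one of the 10 chains with each Bbs8-/- library above each Bbs8+/+ library, a pattern that 3.62% of all genes tested showed. The adult fast chain Myh1, the most abundant of the 10, had overlapping groups and a fitted fold of 1.00, and the fast chain Myh4 had a lower mean in Bbs8-/- that missed the threshold. The median log2 fold change over the 7 tested chains was -0.00039, and over all genes it was -0.0041. In bulk tissue, a change in the number of muscle fibres and a change in RNA per fibre cannot be told apart.

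The developmental chains were measured first. Myh8 had 57, 77, 51 and 80 counts in Bbs8+/+ libraries 1 to 4 and 83, 97, 106 and 105 counts in Bbs8-/- libraries 1 to 4. After scaling by edgeR's trimmed mean of M values (TMM), it reached 24.6, 30.3, 23.9 and 28.0 CPM in Bbs8+/+ and 50.4, 50.7, 48.7 and 49.1 CPM in Bbs8-/-. The lowest Bbs8-/- library thus lay well above the highest Bbs8+/+ library. Myh8 rose from a mean of 26.7 ± 3.01 CPM to one of 49.7 ± 0.990 CPM (SD, n = 4 each). The log2 fold change was 0.89 (SE 0.16, 95% interval 0.57 to 1.21, edgeR quasi-likelihood FDR 4.43e-05), which is 1.85-fold. Counts of this size alone give an SD of about 5.05 CPM per library in Bbs8-/-, so the small spread of the 4 values there is below counting error. Myh8 was past the threshold in all 16 alternatives, with log2 fold changes from 0.84 to 0.96.

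Myh3, the embryonic chain and the other developmental member, did not share this pattern. It had 29, 45, 14 and 33 counts in Bbs8+/+ and 18, 16, 24 and 24 counts in Bbs8-/-. Its levels overlapped, with means of 12.1 ± 4.58 and 10.4 ± 1.35 CPM (SD, n = 4 each), and the Bbs8+/+ libraries spanned the whole range of the Bbs8-/- ones. The log2 fold change was -0.23 (95% interval -0.81 to 0.35, edgeR FDR 0.824). That interval lies below the whole interval of Myh8, and the difference between the 2 chains was not tested in the fit. Within a library, Myh8 had 171 to 364 counts per 100 Myh3 counts in Bbs8+/+ and 438 to 606 in Bbs8-/-, without overlap.

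**Figure D1:**
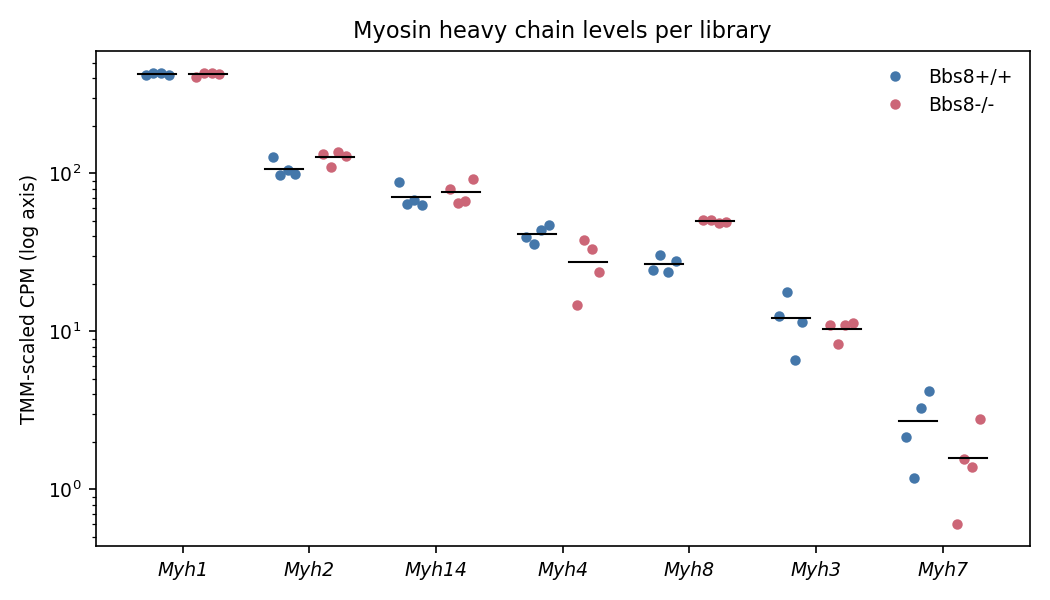
TMM-scaled CPM (log axis) of the 7 tested heavy chains in each of 4 Bbs8+/+ (blue) and 4 Bbs8-/- (red) libraries, with a line at each mean. Myh8 is the chain whose groups do not overlap, at 23.9 to 30.3 CPM in Bbs8+/+ and 48.7 to 50.7 CPM in Bbs8-/-, while Myh1 lies between 408 and 430 CPM in all 8.

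Of the adult fast chains, Myh1 (IIx) carried most of the signal. Its counts were 972, 1091, 916 and 1195 in Bbs8+/+ and 671, 821, 934 and 915 in Bbs8-/-. On the CPM scale these were 420, 430, 429 and 418 in Bbs8+/+ and 408, 429, 429 and 428 in Bbs8-/-. The groups overlapped and 7 of the 8 libraries lay within 418 to 430 CPM. The means were 423.9 ± 6.08 and 423.5 ± 10.6 CPM (SD, n = 4 each) and the fitted fold was 1.00 (95% interval 0.919 to 1.09, edgeR FDR 0.999). A change of Myh1 of the size fitted for Myh8 lies outside this interval.

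Myh2, the IIa chain, had 295, 248, 224 and 282 counts in Bbs8+/+ and 218, 211, 298 and 276 counts in Bbs8-/-. Its means were 107 ± 13.8 and 127 ± 11.7 CPM, with Bbs8+/+ library 1 at 127 CPM inside the Bbs8-/- range of 110 to 137 CPM. The log2 fold change was 0.25 (95% interval 0.06 to 0.45, edgeR FDR 0.206) and did not pass the threshold.

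Myh4, the IIb chain of the fastest limb fibres, had 92, 91, 93 and 134 counts in Bbs8+/+ and 24, 72, 72 and 51 counts in Bbs8-/-. On the CPM scale it stood at 39.7, 35.8, 43.5 and 46.9 in Bbs8+/+ and at 14.6, 37.6, 33.1 and 23.9 in Bbs8-/-. The groups overlapped by 1 library, Bbs8-/- 2, which lay above Bbs8+/+ 2, and Bbs8-/- 1 was the lowest. The log2 fold change was -0.59 (SE 0.18, 95% interval -0.94 to -0.24, edgeR quasi-likelihood FDR 0.0526). The call rested on the settings, since 8 of 16 alternatives placed Myh4 past the threshold and the FDR ranged from 0.0139 without Bbs8-/- 2 to 0.36 without Bbs8-/- 1, where the log2 fold change was -0.40.

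The order of the chains by level was Myh1, Myh2, Myh14, Myh4, Myh8, Myh3 and Myh7 in Bbs8+/+. In Bbs8-/- Myh8 stood ahead of Myh4 and the other chains kept their places. This exchange was seen in each library. There were 54.8 to 84.6 Myh8 counts per 100 Myh4 counts in Bbs8+/+ and 135 to 346 in Bbs8-/-. In Bbs8+/+ the neighbours Myh8 and Myh3, Myh4 and Myh8, Myh14 and Myh4, and Myh2 and Myh14 did not overlap over the 4 libraries, and neither did the neighbours from Myh2 down to Myh3 in Bbs8-/-.

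The slow, cardiac and extraocular chains had few or no counts. Myh7, the slow chain, had 5, 3, 7 and 12 counts in Bbs8+/+ and 1, 3, 3 and 6 counts in Bbs8-/- (log2 fold change -0.72, 95% interval -2.11 to 0.67, edgeR FDR 0.747). At this depth the interval leaves room for a fall or a modest rise of Myh7. Myh6 had 6 counts in Bbs8+/+ 2, 1 count in Bbs8-/- 1 and 0 in the other 6 libraries.

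Myh13, the chain most closely tied to extraocular muscle, had 0, 0, 0 and 6 counts in Bbs8+/+ and 1, 0, 1 and 1 counts in Bbs8-/-. Myh7b had 1 count in all 8 libraries together. The extraocular label therefore rests on where the tissue came from and not on these 2 defining chains, which were at or near 0. The fast chains that were abundant are shared with limb muscle. Myh15, a slow-tonic chain outside the set, averaged 22.3 CPM in Bbs8+/+ and 23.9 CPM in Bbs8-/-. No fold is given for Myh6, Myh13 and Myh7b.

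Myh14, the non-muscle chain, had 205, 163, 145 and 179 counts in Bbs8+/+ and 131, 125, 146 and 196 counts in Bbs8-/-. Its means were 70.8 ± 12.0 and 75.9 ± 12.3 CPM (log2 fold change 0.11, 95% interval -0.14 to 0.35, edgeR FDR 0.804), and the groups overlapped. The other 4 heavy chain genes of the mouse that were measured beside the set gave log2 fold changes of 0.0015 for Myh9 and 0.057 for Myh10 (both non-muscle), -0.07 for Myh11 (smooth muscle) and 0.077 for Myh15 (a slow-tonic chain), and none of the 4 was called.

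The share of each chain in the sum of the 10 was computed from the counts of each library, which needs no scaling between libraries. The sum was 1148 to 1921 counts per library. On the CPM scale it was 714, 679, 679 and 672 in Bbs8+/+ and 697, 703, 728 and 736 in Bbs8-/-, with means of 686 ± 19.2 and 716 ± 18.7 CPM (SD, n = 4 each). The groups overlapped through Bbs8+/+ 1, and without Myh14 the means were 615 ± 7.46 and 640 ± 17.7 CPM. The mean summed CPM of these chains was thus 1.04-fold in Bbs8-/- in both versions. No test was made of sums or shares.

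Myh8 made up 3.44%, 4.47%, 3.51% and 4.16% of the sum in Bbs8+/+ and 7.23%, 7.21%, 6.69% and 6.67% in Bbs8-/-. The exact binomial 95% intervals, which cover counting error only, reached from 2.62% to at most 5.55% in Bbs8+/+ and from 5.49% to 8.88% in Bbs8-/-. The means were 3.90% ± 0.499 and 6.95% ± 0.312 (SD, n = 4 each), a difference of 3.05 percentage points. Myh1 took 61.8% ± 2.12 and 59.1% ± 1.31, Myh2 took 15.6% ± 1.56 and 17.8% ± 1.52, and Myh14 took 10.3% ± 1.43 and 10.6% ± 1.60. Myh4 took 5.56%, 5.28%, 6.41% and 6.98% in Bbs8+/+ and 2.09%, 5.35%, 4.55% and 3.24% in Bbs8-/-, overlapping. Myh3 took 1.76% ± 0.672 and 1.45% ± 0.175, and Myh7, Myh6, Myh13 and Myh7b each had a mean under 0.40% in both genotypes.

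Among the 9 sarcomeric chains, without Myh14, the fast chains Myh1, Myh2 and Myh4 together took 93.1% ± 1.25 in Bbs8+/+ and 90.3% ± 0.402 in Bbs8-/-. The developmental chains Myh3 and Myh8 together took 6.30% ± 1.19 and 9.40% ± 0.380. In both of these sums the genotypes did not overlap. With Myh14 in the sum, the fast chains took 82.1% to 85.0% in Bbs8+/+ and 78.9% to 82.3% in Bbs8-/-, which overlapped, and the developmental chains still did not. Among the 9 chains the rise of the developmental share came from Myh8, since the Myh3 mean was 1.96% in Bbs8+/+ and 1.62% in Bbs8-/-.

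**Figure D2:**
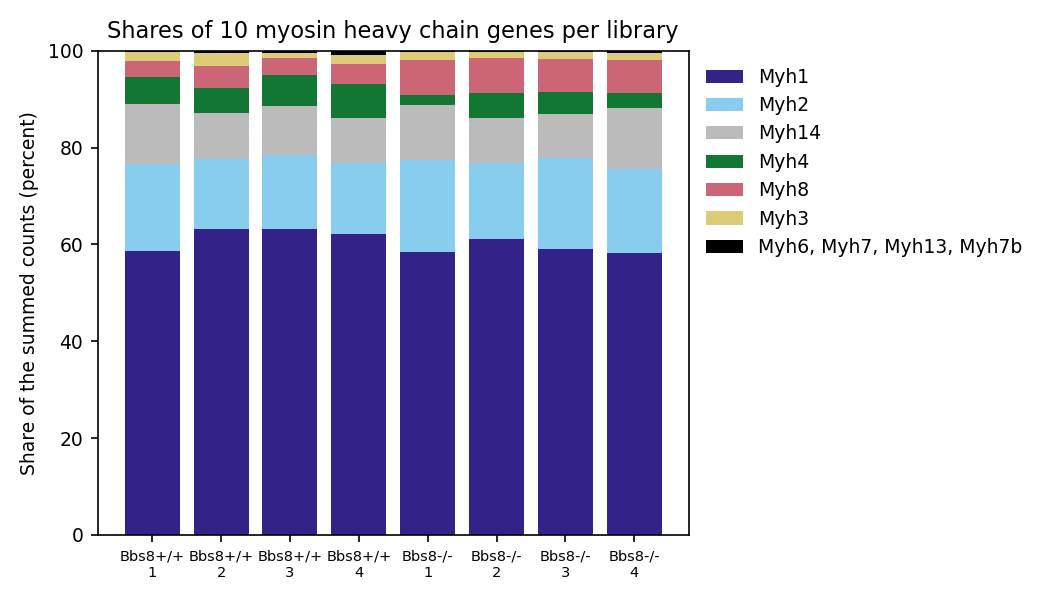
Share of each heavy chain gene (percent of the summed counts of the 10 genes, stacked to 100) in each of the 8 libraries. Myh1 fills 58.1% to 63.3% of every bar, and the Myh8 band widens from 3.44% to 4.47% in Bbs8+/+ to 6.67% to 7.23% in Bbs8-/-.

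A ratio of counts within a library removes differences in how much muscle each eyecup carried, as far as one chain stands for the muscle. Per 100 Myh1 counts there were 5.86, 7.06, 5.57 and 6.70 Myh8 counts in Bbs8+/+ and 12.4, 11.8, 11.4 and 11.5 in Bbs8-/-. The groups stood apart, with means of 6.30 ± 0.697 and 11.8 ± 0.456 (SD, n = 4 each), 1.87-fold. An exact permutation test over the libraries gave p = 0.0286 (two-sided), the smallest value that 4 against 4 allows, for a ratio chosen after its values had been seen. Per 100 Myh1 counts Myh4 had 9.79 ± 1.21 counts in Bbs8+/+ and 6.41 ± 2.31 in Bbs8-/-, and Myh2 had 25.3 ± 3.45 and 30.1 ± 3.07, both with overlap. Against the summed counts of 20 thin filament, calcium and metabolic muscle genes, Myh8 had 9.58 ± 1.36 counts per 1000 in Bbs8+/+ and 16.0 ± 0.889 in Bbs8-/-, 1.67-fold and without overlap.

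**Figure D3:**
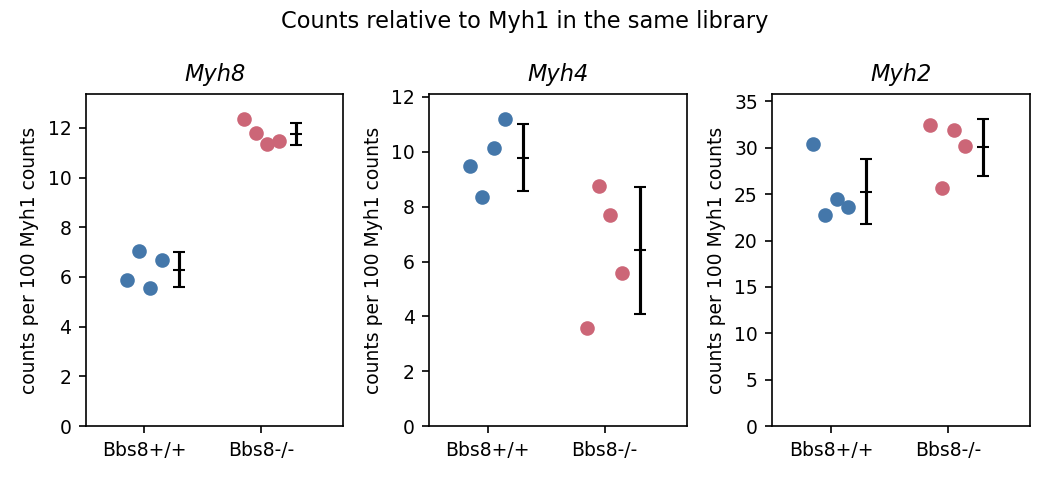
Counts of Myh8, Myh4 and Myh2 per 100 counts of Myh1 in the same library, with the mean and SD of each genotype (n = 4) in black. For Myh8 the Bbs8-/- libraries lie between 11.4 and 12.4 and the Bbs8+/+ libraries between 5.57 and 7.06, whereas the groups overlap for Myh4 and Myh2.

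The partners of the heavy chains in the sarcomere showed small differences. Of 7 myosin light chain genes 5 were tested and none was called. Mylpf, the fast regulatory light chain, was 354 ± 23.0 and 380 ± 20.1 CPM (log2 fold change 0.11, edgeR FDR 0.511), and Myl1, the fast alkali light chain, gave 0.18 (FDR 0.466). Myl7, the atrial light chain, was at 0 in all libraries.

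Of 11 thick filament genes 8 were tested and none was called. Ttn, the giant spring of the sarcomere, lay at 1330 to 1388 CPM per Bbs8+/+ library and at 1463 to 1558 CPM per Bbs8-/- library, without overlap, with a log2 fold change of 0.15 (edgeR FDR 0.0632). Mybpc1, the slow myosin binding protein C, gave -0.0075 (edgeR FDR 0.992). Of 6 genes that fold or turn over myosin 5 were tested with none called, and their most abundant members were the ubiquitin ligases Trim63 (-0.091, edgeR FDR 0.902) and Fbxo32 (-0.34, edgeR FDR 0.522).

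All 20 thin filament, calcium and metabolic genes were tested. The number with a log2 fold change above 0 was 14, where 49.5% of all genes tested lay above 0. The median of the 20 was 0.13 beside -0.0041 for all genes. The called members were 2, both higher, and 1.10% of all genes tested were called higher. Tnnc2, the fast troponin C, rose by 0.30 on the log2 scale (edgeR FDR 0.00138), from 371 ± 27.5 to 456 ± 58.4 CPM, although Bbs8-/- library 3 at 374 CPM lay inside the Bbs8+/+ range. Tpm1, a tropomyosin that smooth muscle and fibroblasts use too, rose by 0.20 on that scale (edgeR FDR 0.0187). The list summed to 2722 to 2969 CPM per Bbs8+/+ library and 2912 to 3309 CPM per Bbs8-/- library, with overlap.

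**Figure D4:**
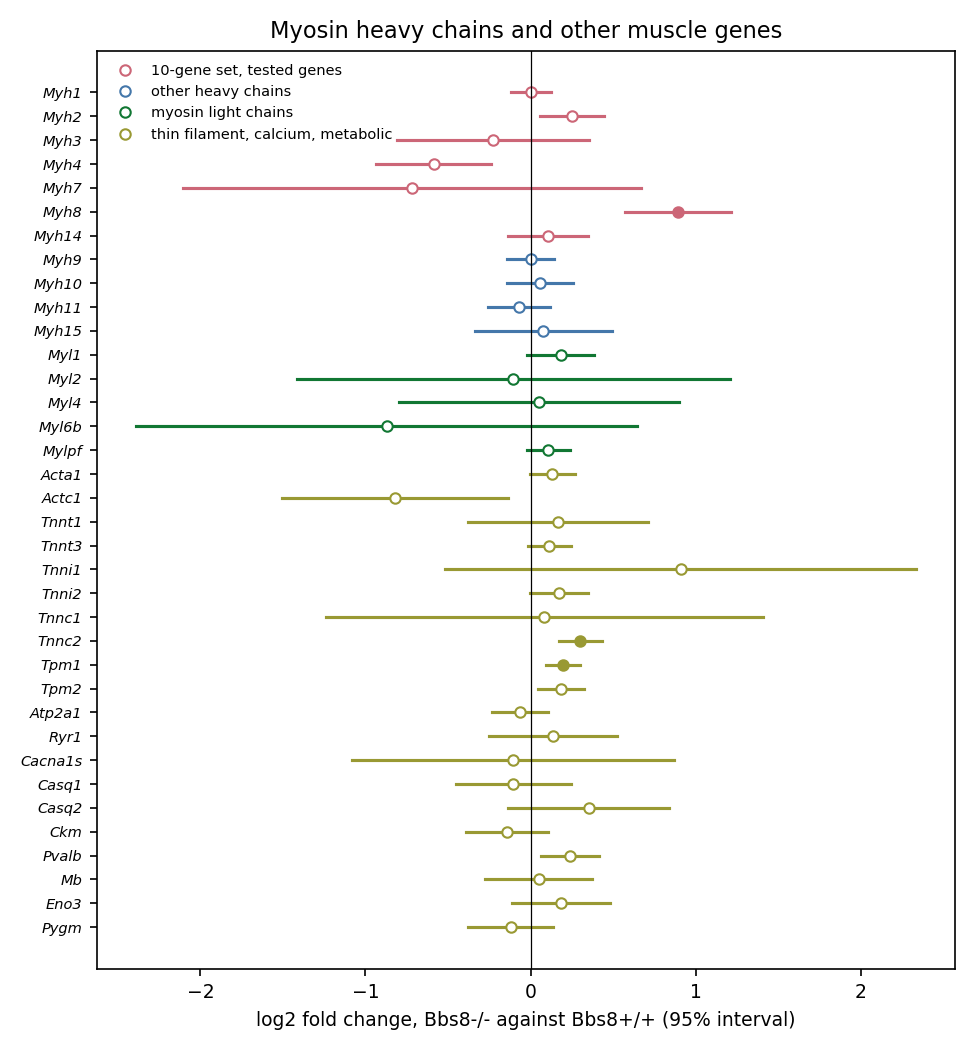
Log2 fold change of Bbs8-/- against Bbs8+/+ with its 95% interval (edgeR, n = 4 each) for tested genes of the 10-gene set, the other heavy chains, the light chains and the thin filament, calcium and metabolic genes. Filled points passed FDR 0.05, which were Myh8 at 0.89, Tnnc2 at 0.30 and Tpm1 at 0.20.

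Other genes of immature or regenerating muscle were examined beside Myh8. Of 6 fetal muscle genes 3 were tested and none was called. Actc1, the cardiac actin that fetal skeletal muscle also uses, averaged 11.1 ± 2.98 and 6.14 ± 3.68 CPM (log2 fold change -0.82, edgeR FDR 0.26), and Myl4, the embryonic light chain, gave 0.051 (edgeR FDR 0.979). Below the filter, Mymk, which drives myoblast fusion, had 0 counts in each Bbs8+/+ library and 1, 4, 3 and 1 counts in Bbs8-/-, and its partner Mymx had 1 count in all. Among the myogenic regulators, Mef2c rose by 0.36 on the log2 scale (edgeR FDR 0.000408) from 217 ± 25.8 to 279 ± 6.42 CPM. This factor is known outside muscle as well, in endothelium and neurons. Of 8 genes of the neuromuscular junction 5 were tested and none was called, with Rapsn at -0.054 (edgeR FDR 0.954) and Musk at 0.30 (edgeR FDR 0.817).

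Markers of other tissues were set beside the heavy chains. Of 7 cardiac genes 3 were tested with none called, Nppb and Myl7 were at 0 in all libraries, and the list summed to 8.39 to 13.8 and 5.61 to 14.2 CPM. The summed level of 8 smooth muscle and pericyte genes was lower in Bbs8-/-, at 1403 to 1538 CPM against 1581 to 1629 CPM. The one gene of these past the threshold was Rgs5 of pericytes (715 and 599 CPM, log2 fold change -0.26, edgeR FDR 0.000858). The number above 0 was 3 of 8, among them Acta2, the smooth muscle actin, at 244 to 262 CPM in Bbs8+/+ and 263 to 282 CPM in Bbs8-/-. Sums without overlap were also lower in Bbs8-/- for 8 photoreceptor genes (402 to 456 CPM and 283 to 347 CPM) and 6 genes of myelinating glia (366 to 416 CPM and 275 to 333 CPM). The summed level of 9 RPE genes overlapped (19150 to 19930 CPM and 19600 to 20160 CPM), but its largest part was Ttr, and 4 of the 9 genes were called, in both directions. Otx2 was higher (log2 fold change 0.48), and Tyrp1 (-0.56), Mitf (-0.36) and Pmel (-0.25) were lower. Over all genes tested, 49.5% lay above 0, 1.10% were called higher and 1.14% lower. Summed levels also overlapped for 4 fat genes (5.51 to 12.6 CPM and 3.74 to 7.84 CPM).

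Antisense genes overlap several members, and the strand setting of the counting is not given in the sources used here. Myhas, antisense to Myh1, had 1 count over all 8 libraries, as did Mhrt, antisense to Myh7. The gene 9430073C21Rik, antisense to the 3′ end of Myh2, had 0 counts in each Bbs8+/+ library and 2, 1, 3 and 1 counts in Bbs8-/-, which is 0 against 7 counts over the genotypes and at most 3 counts in a library. None of the antisense genes looked up here overlapped Myh8.

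Among 9041 genes with a mean of at least 10 CPM, those whose deviations within genotype were most like Myh1 over the 8 libraries were Ndufv3 (r = 0.993), Pcsk7 (r = 0.973), Ptgis (r = 0.965), Nfix (r = 0.962) and Ppp1r12a (r = 0.961). No sarcomere gene was among these 5. For Myh8 the same r with Myh1 was 0.0016, for Myh4 0.692 and for Myh2 -0.33. The deviations of Myh1 were below counting error, at an SD of 6.08 CPM where counts alone give 13.2 CPM in Bbs8+/+, so these values are a description only.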

How the data were processed

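RNA of P11 mouse eyecups, 30 ng per library, was made into QuantSeq 3′ mRNA libraries and sequenced as single-end reads. The authors trimmed reads with BBDuk, aligned them with STAR to mm10 with Ensembl gene models and counted uniquely aligned reads per gene with htseq-count. The deposited values are raw counts per Ensembl gene, 31053 per file, and 5 summary lines per file were left out. No molecular identifiers are named, so intervals and floors cover counting error only. Symbols were matched for 30934 identifiers. Libraries were grouped by the genotype in their titles and labels, 4 of each.

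The counts were tested with edgeR 4.0.16 in R 4.3.3 (TMM scaling, a filter of 1 CPM or more in 4 or more libraries, quasi-likelihood F-test of genotype, Benjamini-Hochberg FDR 0.05 over all 13813 genes). Fold changes are Bbs8-/- against Bbs8+/+. Shares are percentages of summed counts with exact (Clopper-Pearson) intervals from SciPy 1.17.1. The exact permutation test used the mean log2 ratio. Alternatives in edgeR were relative log expression (RLE) size factors, library totals, other filters, a likelihood ratio test, a replicate block and thinning. Each library was also left out in turn, and a DESeq2 1.42.0 Wald test was run. The genes, gene lists and comparisons were chosen with earlier results of these data known. Genes named were all 10 chains, Ttc8, the other heavy chains, and from each muscle list the genes past the FDR threshold and the 2 most abundant. Marker lists of other tissues are given as summed levels, and the genes named from these, from the thin filament list and below the filter were chosen after their values had been seen. For likeness, log2 CPM with a prior count of 2 was centred on the genotype mean. Promoters were from RefSeq (GRCm38.p6), where all 10 genes had an entry. The depth was 1636725 to 2884983 counts per library. One result of the myogenic regulator list is not reported here.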

Additional observations from a re-analysis of the deposited data

Results flagged for a closer look

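Values were compared within each group of 4 libraries, and a library was marked when its gap to the nearest other one took up most of the group's range. Of 46 such groups 12 were marked, where chance gives about 1 in 20, or 2.3. Most belong to chains that were at 0 in the other libraries, where any count stands apart. These were Myh6 at 2.36 CPM (0.348% of the sum) in Bbs8+/+ 2 and 0.607 CPM (0.0871%) in Bbs8-/- 1, Myh13 at 2.10 CPM (0.312%) in Bbs8+/+ 4, and Myh7b at 0.468 CPM (0.0689%) in Bbs8+/+ 3. The 6 counts of Myh13 in Bbs8+/+ 4 came from the most deeply sequenced library.

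Among the expressed chains, Myh1 was lowest in Bbs8-/- 1 at 407.6 CPM, Myh3 was lowest in Bbs8-/- 2 at 8.37 CPM (1.19% of the sum), and the sum of the 10 chains was highest in Bbs8+/+ 1 at 714.2 CPM. In Bbs8+/+ 1 Myh2 and Myh14 were the highest of their group. Myh8 and Myh4 had no marked library. The cause was not tested for any of these values.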

How the results depend on the processing

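Myh8 stayed the one chain called higher in all 16 alternatives. The number called lower was 0 and became 1, Myh4, with library totals only, filterByExpr, no filter on low counts, the likelihood ratio test, thinning and the replicate block, and it was 0 or 1 when single libraries were dropped, being 1 without Bbs8-/- 2 or Bbs8-/- 3. DESeq2 gave Myh4 an adjusted p of 0.189. The sign for Myh1 turned to 0.0032 with RLE size factors, 0.0041 with filterByExpr, 0.0038 with DESeq2 and 0.030 in thinned counts. Its values lay between -0.0066 and 0.021 when single libraries were dropped. Myh3 ranged from -0.42 to 0.019 and Myh14 from -0.0029 to 0.23 in the same way, where Bbs8+/+ 2 and Bbs8-/- 4 turned the sign. Leaving out Myh14 moved the summed level to 615.1 and 640.2 CPM and the Myh8 share in Bbs8-/- to 7.78%, by construction. Per kilobase of transcript the Myh8 shares were 3.88% and 6.92%. Same-numbered libraries of the 2 genotypes did not deviate together (correlations of 0.009, 0.01, -0.069 and -0.064 over 3344 genes), so the numbers do not pair them. With the replicate block the log2 fold changes were 0.90 for Myh8, -0.62 for Myh4 (edgeR FDR 0.0487) and -1.97 for Ttc8. The depth limits Myh6, Myh13 and Myh7b to presence or absence of a few counts, and Myh7 to a wide interval. The cause of the changes was otherwise not tested.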
